A study of Homo sapiens with 32 samples.

Results

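Ribosome biogenesis factors are the proteins that cut, modify and fold ribosomal RNA and assemble it with ribosomal proteins, and 42 genes for such factors were followed here over a release from mitotic arrest. The genes were chosen by name, from a list of symbols, with earlier results of these data known. All 42 were in the deposited table and passed the filter on low values, of 22940 genes that passed and 24242 that could be named. By the step of ribosome assembly in which their product acts, 16 were placed with the small subunit, 13 with the large subunit and 7 with the small nucleolar ribonucleoproteins (snoRNPs). The other 6 code for nucleolar proteins that serve both subunits. Most placements follow the better studied yeast counterparts.

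The cells were HUH7, an established human hepatoma line. Synchronized cells had been blocked with 2 mM thymidine for 24 hours, released for 2 hours and arrested in mitosis with 0.06 ug/mL nocodazole for 16 hours. They were then shaken off, washed and plated again in fresh medium. New RNA was labelled for 40 minutes with 0.5 mM ethynyl uridine (EU), a uridine analog that can be coupled to biotin, and the labelled RNA was captured and sequenced. Where the pulse lies relative to the named release time is not given in the labels, so the 0 minute group may cover the arrest itself or the first 40 minutes of release. The groups used here are 0, 40, 80, 105, 165 and 300 minutes of release and an asynchronous culture, which was labelled in the same way but never blocked. All 6 release groups share the thymidine and nocodazole steps, so effects of the drugs and of the cell cycle stage cannot be told apart when they are set against the asynchronous culture. The labels give 3 replicates a group, but the deposited table has 1 value per group and transcript. No replicate error can be given, and no difference was tested: a gene is called higher or lower when the ratio of FPKM + 1 between groups reaches 2-fold.

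Ribosomes are made mainly in the nucleolus, where RNA polymerase I transcribes a long precursor of the ribosomal RNAs. Factors of the small subunit assemble on this precursor as it emerges, others process the large subunit part, and snoRNPs guide methylation and pseudouridylation of single bases. Transcription by RNA polymerase I stops in mitosis and the nucleolus is taken apart, then is rebuilt as cells enter G1.

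FPKM is a relative unit: the fragments of a transcript scaled by its length and by the size of the library, here of captured RNA, so a change of total RNA synthesis is not seen in it. The sum over all transcripts was not constant. Relative to 0 minutes it was 1.22 at 40 minutes, 1.67 at 80, 1.70 at 105, 1.60 at 165, 1.45 at 300 and 1.41 in the asynchronous culture. Genes of high level tended to be higher after 0 minutes, and the 42 genes are of high level: their mean FPKM over the 7 groups ran from 75.1 for DDX10 to 2432 for NCL, with a median of 363 against 53.8 for all genes. Counts of 2-fold members are therefore given beside the shares of all genes and of the 8228 genes with a mean of 100 to 1000 FPKM, a range that holds 37 of the 42. Of the markers of the line, the liver transcription factor gene HNF4A stood between 694 FPKM at 0 minutes and 1553 at 165, with 947 in the asynchronous culture. Of the other liver genes only FOXA2 passed its asynchronous level during release. The rest stayed below it: APOB, for instance, was at 239 FPKM at 0 minutes and 300 at 165, against 4016 in the asynchronous culture. The summed level of 9 liver genes was 2722 FPKM at 0 minutes, 4868 at 300 and 17113 in the asynchronous culture. Sums of 5 blood genes and of 6 stromal or endothelial genes ran from 33.0 to 124 and from 55.4 to 79.8 FPKM. The part of these markers in the differences below was not tested.

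Many of the 42 genes share a short sequence at their start. The hexamer CACGTG, a palindrome known as the canonical E-box, lay within the 250 bases before to 50 after the annotated start of 19 of the 35 genes with a RefSeq promoter (54.3%), against 10.7% of 16491 kept genes with one. RRP12, BOP1, RRP1B, RRS1, DDX18, NOP58 and NOLC1 were not searched. In 17 of the 19 the hexamer began within 35 bases of the start, on either side. The promoters below were chosen because they hold the hexamer beside the start and represent small subunit, large subunit and snoRNP genes. Each runs from 70 bases before the start to 30 after it, 5′ to 3′ on the gene's strand, with CACGTG in capitals (RefSeq, GRCh38.p14).
NOL6 (chr9:33473895-33473994, minus strand): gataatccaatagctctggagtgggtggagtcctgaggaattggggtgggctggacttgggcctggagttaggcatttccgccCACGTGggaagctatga
RRP9 (chr3:51941875-51941974, minus strand): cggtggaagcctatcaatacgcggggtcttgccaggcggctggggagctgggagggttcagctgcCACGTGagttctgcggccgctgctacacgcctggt
PNO1 (chr2:68157818-68157917, plus strand): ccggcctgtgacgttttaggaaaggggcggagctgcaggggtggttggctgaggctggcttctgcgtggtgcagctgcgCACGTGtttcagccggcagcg
UTP4 (chr16:69132579-69132678, plus strand): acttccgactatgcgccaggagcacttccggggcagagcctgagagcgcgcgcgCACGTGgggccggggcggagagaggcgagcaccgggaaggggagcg
MRTO4 (chr1:19251735-19251834, plus strand): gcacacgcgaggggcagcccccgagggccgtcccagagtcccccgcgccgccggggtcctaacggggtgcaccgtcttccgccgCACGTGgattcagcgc
FBL (chr19:39846350-39846449, minus strand): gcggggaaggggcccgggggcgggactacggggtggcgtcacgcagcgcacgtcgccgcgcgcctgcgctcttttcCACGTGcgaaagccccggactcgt
The hexamer began at base 14 of the transcript of NOL6, base 10 of PNO1, base 15 of MRTO4 and base 7 of FBL. It began 5 bases before the start of RRP9 and 16 before that of UTP4. By role, 9 of 15 small subunit promoters, 5 of 9 large subunit promoters, 3 of 6 snoRNP promoters and 2 of 5 shared nucleolar promoters held it. Of 77 promoters of other ribosome biogenesis factors 24 did (31.2%), while 1 of 18 promoters of the RNA polymerase I machinery (5.56%) and 4 of 63 promoters of ribosomal protein genes (6.35%) did. Of the other motifs searched on both strands, CCGGAAG was in 28.6% of the 35 promoters and 16.5% of kept genes, GGGCGG in 77.1% and 63.4%, CCAAT in 45.7% and 41.8%, and TATAAA in 1 promoter (2.86%) and 11.3%. A match describes the letters only.

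At 0 minutes the new RNA of 41 of the 42 genes was below its asynchronous level as deposited, as was that of 54.5% of all genes and 79.8% of genes of 100 to 1000 FPKM. With equal medians 30 of the 42 were below it, and after quantile normalization 22. As deposited 7 of the 42 were at least 2-fold lower and 0 higher. Among all genes 19% were at least 2-fold lower and 14.1% higher, and among genes of 100 to 1000 FPKM 27.1% were lower and 4.44% higher, so the number of low members was near the background. The median log2 fold of the 42 was -0.63, against -0.14 for all genes and -0.60 for genes of 100 to 1000 FPKM. RRS1, a small gene whose product brings the 5S ribonucleoprotein into the large subunit, was the farthest below: 323, 286, 442, 531, 550.0 and 746 FPKM at 0, 40, 80, 105, 165 and 300 minutes and 1295 FPKM in the asynchronous culture (the order kept below). DDX10, the longest of the genes and coding for a helicase of the small subunit pathway, was 2.54-fold lower at 0 minutes, and UTP20, coding for a very large scaffold protein of the small subunit processome, 2.53-fold lower. PPAN, HEATR1, RRP1B and NOP56 were 2.51, 2.29, 2.26 and 2.00-fold lower. RRP12, whose product takes part in export of the small subunit precursor, was the 1 gene above it, at 192, 246, 312, 268, 208 and 214 FPKM and 122 in the asynchronous culture. It was 1.58-fold above the asynchronous level at 0 minutes. With columns scaled to equal medians or quantile normalized, the 7 calls became 2: RRS1, 3.13 and 2.68-fold lower, and RRP12, 2.02 and 2.66-fold higher.

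Against the asynchronous culture, medians by role at 0 minutes were -0.66 for the small subunit (-0.02 after quantile normalization) and -0.82 for the large subunit (-0.18 after quantile normalization). They were -0.43 for snoRNP genes and -0.38 for the shared nucleolar genes, and both turned after quantile normalization, to 0.16 and 0.14. In percent of the asynchronous level the medians were 63.2%, 56.5%, 74.0% and 76.9%. The median of each role thus stood above 50% of the asynchronous level at 0 minutes as deposited, relative to other captured RNA.

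At 40 minutes 39 of the 42 genes stood above their 0 minute value as deposited, against 64.5% of all genes and 84.1% of genes of 100 to 1000 FPKM. With equal medians 32 were above it and after quantile normalization 20. In either direction 0 of 42 reached 2-fold, against 3.24% higher and 2.05% lower among all genes and 1.9% and 0.644% among genes of 100 to 1000 FPKM. PPAN, at 1.40-fold, and NOP16, at 1.37-fold, were the farthest above. As deposited only RRS1, WDR12 and WDR75 were lower than at 0 minutes, by at most 1.13-fold. The members' median log2 fold of 0.28 was -0.02 after quantile normalization. At this time 10 of the 42 (23.8%) were at or above their asynchronous level, against 50.4% of all genes and 29.8% of genes of 100 to 1000 FPKM.

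The main step came at 80 minutes. Of the 42 genes 18 (42.9%) were at least 2-fold above 0 minutes and 0 lower, against 20.1% and 2.65% of all genes and 34.7% and 0.51% of genes of 100 to 1000 FPKM. The median log2 fold was 0.84, against 0.31 for all genes and 0.78 for genes of 100 to 1000 FPKM. Most of the distance from all genes was thus shared with other genes of like level. With equal medians 8 of the 42 stayed at 2-fold or more (BOP1, BYSL, MRTO4, NHP2, NIP7, NOL6, NOP16 and RRP9), and after quantile normalization 1 did, BOP1, at 2.03-fold. The members' median was then 0.44 and 0.01. By role, 6 of 16 small subunit genes, 7 of 13 large subunit genes, 4 of 7 snoRNP genes and 1 of 6 shared nucleolar genes reached 2-fold as deposited, with medians of 0.78, 1.07, 1.00 and 0.71. Quantile normalization left the large subunit and snoRNP medians above 0, at 0.24 and 0.09, and put the small subunit and shared medians below it, at -0.02 and -0.05. The gene just inside the limit was DKC1, at 2.00-fold, and the gene just outside was TSR1, at 1.94-fold. From 40 to 80 minutes alone, 9 of the 42 were at least 2-fold higher and 0 lower, against 13.5% and 2.72% of all genes and 21.7% and 0.778% of genes of 100 to 1000 FPKM. These 9 were NOL6, RRP9, BOP1, NHP2, WDR12, LYAR, MRTO4, NOP16 and NIP7, of which NOL6 and RRP9 stayed with equal medians and 0 after quantile normalization.

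**Figure D1:**
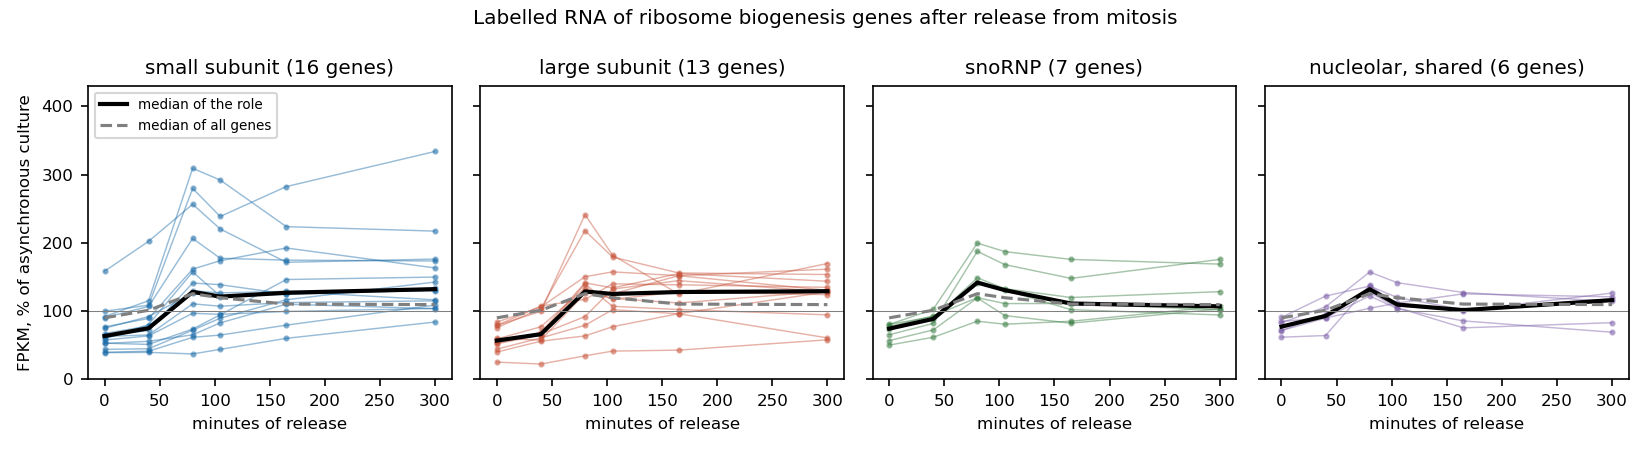
FPKM of each of the 42 genes in percent of its asynchronous level (y axis) against minutes of release (x axis), 1 thin line per gene and 1 panel per role, with the median of the role (thick black line) and of all genes (dashed grey line). Role medians lie between 56.5% and 76.9% at 0 minutes and between 128% and 142% at 80 minutes.

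After 80 minutes no interval between neighbouring times held a call. Of the 42 genes 0 were at least 2-fold apart from 80 to 105 minutes (2.02% of all genes higher, 2.57% lower), from 105 to 165 minutes (2.27% and 5.27%) and from 165 to 300 minutes (3.04% and 4.1%). Among genes of 100 to 1000 FPKM the same shares were 1.19% and 1.08%, 1.34% and 4.39%, and 1.58% and 3.85%. The time of the highest value differed among the members. The highest release value lay at 80 minutes in 21 of the 42 (50%), at 105 minutes in 3, at 165 minutes in 6 and at 300 minutes in 12. Among all genes 23.1% were highest at 80 minutes and 34.2% at 165 or 300, and among genes of 100 to 1000 FPKM 31.4% and 46.4%. In 11 of the 42 the highest value was less than 5% over the next, so the time is not sharply set there: TSR1 and NOP2, for instance, were at 0.278% and 0.247% over the next value. Quantile normalization moved the number highest at 80 minutes from 21 to 8, and equal medians to 18. Those highest at 165 or 300 minutes numbered 18 as deposited, 25 after quantile normalization and 23 with equal medians.

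**Figure D2:**
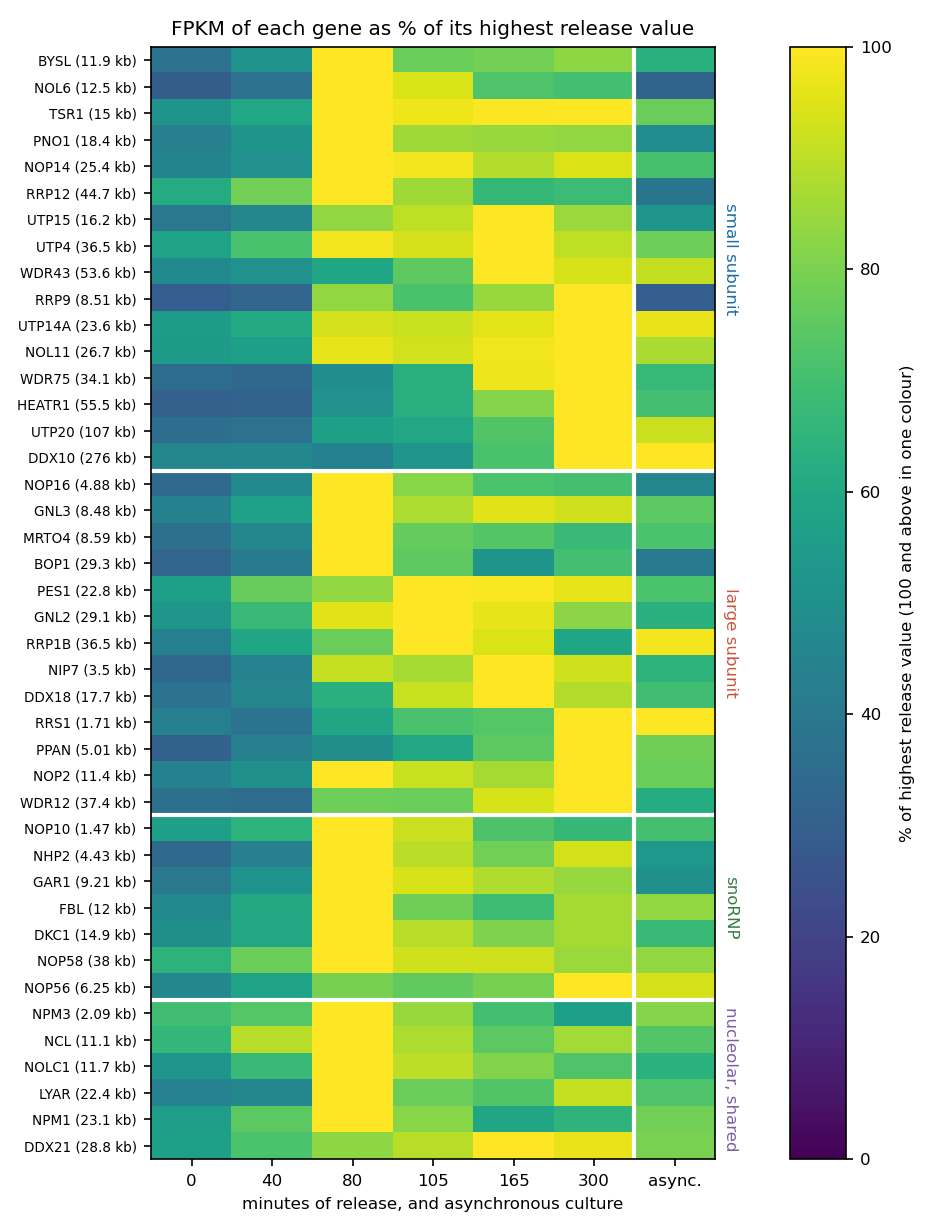
FPKM of each gene at each release time and in the asynchronous culture in percent of its own highest release value (colour), with genes in rows, grouped by role and ordered by the time of the highest value and then by gene length (kb in brackets). As deposited 6 of the 7 snoRNP genes are brightest at 80 minutes (1 of 7 after quantile normalization), and 10 of 16 small subunit genes are brightest at 165 or 300 minutes (11 of 16).

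Genes of the same complex were compared next. The UTP-A complex is the first group of proteins to bind the ribosomal RNA precursor. Of its 6 genes 6 had their highest value at 165 or 300 minutes (5 of 6 after quantile normalization, with 0 at 80 minutes). The shares were 34.2% of all genes and 46.4% of genes of 100 to 1000 FPKM. For UTP4 the highest value was only 1.70% over that at 80 minutes. HEATR1, WDR75 and WDR43 were well above their 80 minute value at 165 and 300 minutes. The other 3 were near their 80 minute value at 300 minutes. HEATR1, coding for its largest subunit, stood at 139, 142, 228, 284, 370.4 and 453 FPKM and 318 in the asynchronous culture. It passed 2-fold over 0 minutes at 105 minutes and its asynchronous level at 165. WDR75 stood at 253, 244, 353, 453, 702 and 719 FPKM and 480.3 in the asynchronous culture, and was 2.83-fold above 0 minutes at 300 minutes. WDR43 was at 397, 421, 493, 627, 835 and 785 FPKM and 759 in the asynchronous culture, and did not reach its asynchronous level before 165 minutes. UTP15, UTP4 and NOL11 first reached their asynchronous level at 80 minutes, and their log2 folds from 80 to 300 minutes were 0.01, -0.12 and 0.06. UTP15 stood at 139, 161, 292, 315, 349 and 295 FPKM and 181 in the asynchronous culture, and UTP4 at 231, 284, 392, 372, 398 and 360.4 FPKM and 310.0 in the asynchronous culture. NOL11, coding for a subunit found in animals, stood at 167, 173, 295, 285, 299.7 and 306 FPKM and 267 in the asynchronous culture.

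The box H/ACA snoRNP holds the pseudouridine synthase dyskerin and its partners. Of its 4 genes 4 were highest at 80 minutes, as deposited and with equal medians. As deposited the shares were 23.1% of all genes and 31.4% of genes of 100 to 1000 FPKM. After quantile normalization 0 of 4 were highest at 80 minutes and 3 of 4 at 165 or 300, so under that scaling the time of the highest value did not set the 2 complexes apart. DKC1, the gene of dyskerin, stood at 256, 305, 514, 459, 414 and 444 FPKM and 346 in the asynchronous culture. NHP2, coding for an RNA-binding core protein, was at 146, 184, 422, 378, 332 and 395 FPKM and 225 in the asynchronous culture, 2.87-fold above 0 minutes at 80 minutes. GAR1 stood at 272, 348, 678, 636, 597 and 573 FPKM and 339.9 in the asynchronous culture, and NOP10, the smallest of the 42 genes, at 302, 346, 534, 492, 384 and 355 FPKM and 377 in the asynchronous culture. At 300 minutes all 4 were below their 80 minute value as deposited.

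A ratio between genes of the same column does not depend on the scale of that column. The geometric mean of the 6 UTP-A genes over that of the 4 box H/ACA genes was 0.872 at 0 minutes, 0.770 at 40, 0.627 at 80 and 0.773 at 105 minutes. It was 1.08 at 165 minutes, 1.04 at 300 and 1.10 in the asynchronous culture. The balance of the 2 complexes thus leaned to box H/ACA up to 105 minutes, most at 80, and was near its asynchronous value from 165 minutes. After quantile normalization the ratio was 0.862, 0.771, 0.644, 0.779, 1.09, 1.05 and 1.10 in the same order. With no replicates the ratio carries no error, and the pair was chosen after the values were seen. Every UTP-A gene is also longer than every box H/ACA gene, so complex and length cannot be told apart here.

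Other genes of the early small subunit pathway split as well. NOL6, coding for a protein that binds early small subunit precursors, stood at 163, 205, 551, 519.8, 398 and 386 FPKM and 178 in the asynchronous culture. It had the largest step of the 42 at 80 minutes, 3.36-fold over 0 minutes (log2 1.75). This was 1.35 on the log2 scale with equal medians and 0.85 after quantile normalization, under 2-fold and below BOP1 at 1.02. At 300 minutes NOL6 was still 2.16-fold above its asynchronous level. RRP9, coding for a protein specific to the U3 snoRNP, was at 81.4, 88.6, 229, 195, 231 and 273 FPKM and 81.8 in the asynchronous culture. Its values at 0 minutes and in the asynchronous culture were 1.00-fold apart, but it stood 3.31-fold above the latter at 300 minutes, the largest excess of the 42. That excess was 3.27-fold with equal medians and 3.41-fold after quantile normalization. NOP14, a scaffold protein gene of the processome, stood at 318, 356, 704, 692, 624 and 666 FPKM and 499.5 in the asynchronous culture, and UTP14A, whose product activates a helicase there, at 110.3, 122, 186, 183, 191 and 199.6 FPKM and 193 in the asynchronous culture.

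UTP20 and DDX10 were late. UTP20 stood at 96.0, 99.96, 149.7, 158, 193 and 265 FPKM and 244 in the asynchronous culture. DDX10 was at 50.8, 51.2, 48.3, 57.0, 78.1 and 109 FPKM and 131 in the asynchronous culture. As deposited it was the only member lower at 80 minutes than at 0 (by 1.05-fold), and one of the 2 that did not reach the asynchronous level at any release time. These 2 genes are 107 and 276 kb long, the longest of the 42.

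The next 4 genes code for factors of later small subunit maturation. BYSL, needed for late processing of the small subunit RNA, stood at 173, 235, 462, 358, 365 and 384 FPKM and 294 in the asynchronous culture, and PNO1, a partner in the same step, at 210.4, 249, 482, 414, 408 and 405 FPKM and 233 in the asynchronous culture. Both were highest at 80 minutes, at 2.66 and 2.28-fold over 0 minutes. TSR1, which acts on the precursor in the cytoplasm, stood at 308, 358, 597, 582, 592 and 595 FPKM and 461 in the asynchronous culture, level from 80 minutes on. RRP12, given above, was highest at 80 minutes too and 2.55-fold above its asynchronous level there.

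In the large subunit pathway the 3 genes of the PeBoW complex, which processes the spacer next to the large ribosomal RNAs, did not move together. BOP1 stood at 52.7, 66.5, 162, 122, 83.6 and 114 FPKM and 67.0 in the asynchronous culture, with its highest value at 80 minutes, 3.03-fold over 0 minutes. PES1 was at 127, 173, 189, 226, 224 and 218 FPKM and 162 in the asynchronous culture, highest at 105 minutes by 1.03%. WDR12 stood at 126, 121, 266, 264, 321 and 341 FPKM and 211 in the asynchronous culture, highest at 300 minutes. The ratio of WDR12 to BOP1 was 2.39 at 0 minutes, 1.64 at 80, 3.84 at 165 and 3.16 in the asynchronous culture, so the genes of 1 complex were not labelled in a fixed ratio. The PES1 value is the mean of a pair of transcripts that differed in level, with 159.8 and 95.0 FPKM at 0 minutes.

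NOP16, MRTO4 and NIP7 of the large subunit pathway came after BOP1 in the size of the step at 80 minutes. NOP16, coding for an early assembly factor, stood at 390.3, 537, 1128, 928, 807 and 795 FPKM and 518 in the asynchronous culture, and MRTO4, a relative of the ribosomal stalk protein that holds its place in the precursor, at 195, 245, 528, 404, 386 and 356 FPKM and 378 in the asynchronous culture. NIP7 was at 398, 519, 1069, 1012, 1171 and 1086 FPKM and 756 in the asynchronous culture. All 3 were at least 2.68-fold over 0 minutes at 80 minutes. NOP2, coding for a methyltransferase of the large ribosomal RNA, stood at 206, 237, 469, 432, 408 and 470.4 FPKM and 365 in the asynchronous culture, nearly level from 80 minutes. The GTPase genes GNL2 and GNL3 were at 329, 417, 592, 620.0, 598 and 513 FPKM and 394 in the asynchronous culture (GNL2) and at 323, 422, 735, 643, 702 and 681 FPKM and 549 in the asynchronous culture (GNL3). GNL3 codes for nucleostemin, and only it reached 2-fold over 0 minutes.

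Late or broad courses belonged to DDX18, RRP1B, PPAN and RRS1. DDX18, a helicase gene, stood at 389.9, 469, 653, 941, 1029 and 912 FPKM and 712 in the asynchronous culture. RRP1B was at 110.2, 151, 198, 255, 240.2 and 151 FPKM and 251 in the asynchronous culture, back near its 40 minute value at 300 minutes. PPAN, coding for an assembly factor of the early precursor, stood at 136, 192, 218, 264, 331 and 440.2 FPKM and 344 in the asynchronous culture, 2.02-fold above its 80 minute value at 300 minutes. A read-through transcript of PPAN into the next gene, P2RY11, is annotated, and the share of its reads in these values was not tested. RRS1 was 1.69-fold higher at 300 than at 80 minutes, and as deposited it and DDX10 were the only members that stayed below the asynchronous level throughout. RRS1 is a gene of 1.71 kb, so a late course was not limited to long genes.

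The box C/D snoRNP places methyl groups, and its 3 protein genes showed both courses. FBL, the gene of the methyltransferase fibrillarin, stood at 145, 185, 306, 239, 210.3 and 264 FPKM and 257 in the asynchronous culture, and NOP58, coding for one of the scaffold pair, at 746, 898, 1157, 1073, 1074 and 983 FPKM and 969 in the asynchronous culture. Both were highest at 80 minutes. NOP56, coding for the other scaffold protein, was at 1198, 1473, 2039, 1934, 2037 and 2562 FPKM and 2401 in the asynchronous culture, highest at 300 minutes. The NOP56 to FBL ratio was 8.27 at 0 minutes, 6.67 at 80, 9.69 at 300 and 9.36 in the asynchronous culture.

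Nucleolar proteins shared by both pathways had the smallest steps at 80 minutes by median. NCL, the gene of nucleolin, stood at 1955, 2631, 2948, 2586, 2202 and 2543 FPKM and 2160.2 in the asynchronous culture, the highest level of the 42, and NPM1, the gene of nucleophosmin, at 1094, 1463, 1952, 1607, 1152 and 1269.8 FPKM and 1534 in the asynchronous culture. NOLC1, coding for a chaperone of snoRNPs, was at 666, 854, 1266, 1140.5, 1024 and 918 FPKM and 806 in the asynchronous culture. Of these 3, 0 reached 2-fold over 0 minutes at any time. NPM3, a histone chaperone gene related to NPM1, stood at 97.5, 104, 141, 119, 98.5 and 79.3 FPKM and 115 in the asynchronous culture, as deposited the only member below its 0 minute value at 300 minutes. It has the fewest reads of the 42 in any group, if the smallest step in the table is 1 read and the genomic span is the length used: 50.2 of them, a counting error of 14.1%. DDX21, a helicase gene linked to both polymerase I and II, was at 566, 712, 826, 887, 994 and 959 FPKM and 795 in the asynchronous culture, highest at 165 minutes, unlike the other 5. LYAR, a zinc finger protein gene, stood at 257, 267, 578, 449, 420.0 and 528 FPKM and 418 in the asynchronous culture, the only one of the 6 past 2-fold at 80 minutes (2.24-fold).

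From 80 to 300 minutes 3 of the 42 were at least 2-fold higher and 0 lower, against 8.12% and 13.8% of all genes and 8.35% and 14.9% of genes of 100 to 1000 FPKM. They were DDX10 at 2.24-fold, WDR75 at 2.04-fold and PPAN at 2.02-fold, with HEATR1 just outside at 1.98-fold. All 3 stayed past 2-fold with equal medians and after quantile normalization, where HEATR1 joined them (2.02-fold with equal medians), as did RRS1 after quantile normalization (2.07-fold). PPAN was at 2-fold or more with pseudocounts of 1 and 0.1 but not of 5. UTP-A genes had a median log2 fold of 0.36 over this interval and box H/ACA genes -0.23, against -0.18 for all genes. Small subunit, large subunit, snoRNP and shared medians were 0.04, 0.00, -0.21 and -0.34, the snoRNP median turning to 0.03 after quantile normalization.

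As deposited, longer members were more often highest at 165 or 300 minutes. The length classes were not repeated with other scalings. Of the 19 members under 15 kb 13 were highest at 80 minutes and 6 at 165 or 300, of the 19 of 15 to 50 kb 8 and 8, and of the 4 over 50 kb 0 and 4. Coding genes of the same classes were highest at 80 minutes in 33.9%, 25.5% and 7.86%, and at 165 or 300 minutes in 23.7%, 35.9% and 48.3%. Spearman's rho of length and log2 fold from 80 to 300 minutes was 0.26 over the 42 genes, 0.15 without DDX10 and UTP20, and 0.29 over 17362 coding genes. These points share the same 2 columns, and rho is given as a description. The UTP-A genes run from 16.2 kb (UTP15) to 53.6 and 55.5 kb (WDR43 and HEATR1). The box H/ACA genes are all shorter, from 1.47 kb (NOP10) to 14.9 kb (DKC1). Complex and gene length thus cannot be told apart when these 2 complexes are compared.

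**Figure D3:**
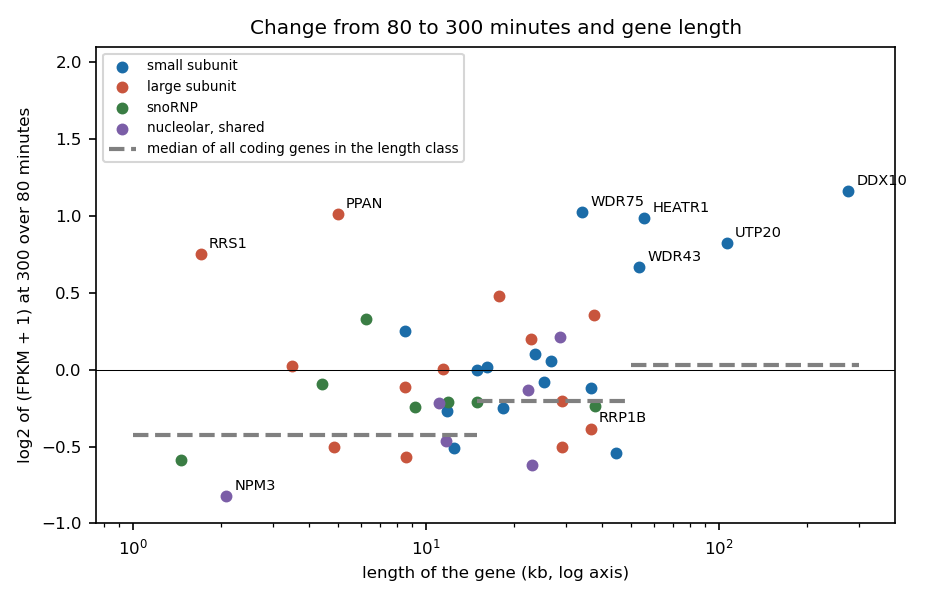
Log2 ratio of FPKM + 1 at 300 over 80 minutes (y axis) against gene length in kb (x axis, log scale) for the 42 genes, coloured by role, with the median of all coding genes in each length class as dashed lines. The 4 genes over 50 kb lie above 0, and among the shorter ones PPAN, WDR75 and RRS1 lie as high.

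At 300 minutes 22 of the 42 were at least 2-fold above 0 minutes and 0 lower, against 18.9% and 8.82% of all genes and 30.1% and 3.22% of genes of 100 to 1000 FPKM. The median log2 fold was 1.03, against 0.21 for all genes and 0.70 for genes of 100 to 1000 FPKM. RRP9, HEATR1 and PPAN were the farthest, at 3.33, 3.25 and 3.21-fold, and all 3 stayed past 2-fold with equal medians (8 members in all) and after quantile normalization (only these 3). Against the asynchronous culture, 35 of the 42 were above it at 300 minutes (59% of all genes, 58.8% of genes of 100 to 1000 FPKM), with a median of 0.35 against 0.11 for all genes and 0.13 for genes of 100 to 1000 FPKM. Of all the comparisons this median moved little with the scaling, to 0.34 with equal medians and 0.32 after quantile normalization. Role medians were 0.40, 0.37, 0.09 and 0.21 for the small subunit, large subunit, snoRNP and shared genes, all above 0 in each scaling. Only NOL6 and RRP9 reached 2-fold, also with both scalings, against 9.84% of all genes higher and 8.57% lower and 9.84% and 9.35% of genes of 100 to 1000 FPKM. At 80 minutes 31 of the 42 (73.8%) were above the asynchronous level, against 63.5% of all genes and 58.8% of genes of 100 to 1000 FPKM. At least 2-fold higher were 6 (14.3%) and lower 2 (4.76%). The shares were 19.4% and 10.8% of all genes and 20% and 11% of genes of 100 to 1000 FPKM, so the members were under both. The 6 were NOL6, RRP9, RRP12, BOP1, NOP16 and PNO1, and the 2 were RRS1 and DDX10. At 300 and at 80 minutes the same asynchronous column was the reference, so these counts are not independent of each other.

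Of the 42 genes, 1 was at its asynchronous level or above from 0 minutes, 9 first reached it at 40 minutes, 21 at 80, 2 at 105, 3 at 165 and 4 at 300. In the same order the shares of all genes were 45.5%, 8.11%, 15.7%, 4.04%, 4.42% and 3.5%. Those of genes of 100 to 1000 FPKM were 20.2%, 10.5%, 29.5%, 6.99%, 7.09% and 4.18%. A 2-fold excess over 0 minutes was first reached by 18 at 80 minutes, 3 at 105, 4 at 165 and 3 at 300, and by 14 at no time. Among all genes 18.1%, 5.69%, 6.15% and 4.38% first reached it at these times and 62.5% at no time. Among genes of 100 to 1000 FPKM 33.2%, 10.3%, 10.5% and 5.02% did, and 39% at no time. Among the 35 with a promoter sequence, 11 of 19 with CACGTG and 6 of 16 without it were at least 2-fold over 0 minutes at 80 minutes, with medians of 1.15 and 0.82. The shares were 20.1% of all genes and 34.7% of genes of 100 to 1000 FPKM. This split is as deposited, and most of these calls were lost with either scaling, as given above. From 80 to 300 minutes the 3 genes past 2-fold were all among the 16 without it, and the medians were -0.12 with it and 0.02 without it. These are counts over members, with no test.

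Of the 42 genes 16 (38.1%) start within 1000 bases of the start of another coding gene on the opposite strand, against 12.2% of 16996 coding genes. Distances ran from 5 to 404 bases. As deposited, at 80 against 0 minutes 6 of the 16 neighbours were at least 2-fold higher (20.1% of all genes), and 2 were below their 0 minute value. Of the 16 members beside them 12 were at least 2-fold higher, among them the 6 beside those neighbours. The shares were 42.9% of the 42 and 34.7% of genes of 100 to 1000 FPKM. Neighbours were not counted with other scalings. Of the 18 calls among the 42, 8 stayed with equal medians and 1 after quantile normalization. HIGD2A, a respiratory chain assembly gene 15 bases from NOP16, stood at 77.7, 73.0, 259, 217, 68.4 and 52.5 FPKM and 180.5 in the asynchronous culture, and ZBTB49, 82 bases from LYAR, at 112, 101, 377, 301, 192 and 209 FPKM and 143 in the asynchronous culture. Both were highest at 80 minutes, and each was more than 3-fold over 0 minutes. The chromatin remodelling gene PBRM1, 84 bases from GNL3, stood at 60.7, 64.8, 58.1, 64.9, 84.4 and 108 FPKM and 123 in the asynchronous culture: 1.04-fold below its 0 minute value at 80 minutes, while GNL3 was 2.27-fold above. PBRM1 is 138 kb long and GNL3 8.48 kb. As deposited, a shared start region thus went with a like step in some pairs and not in others.

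**Figure D4:**
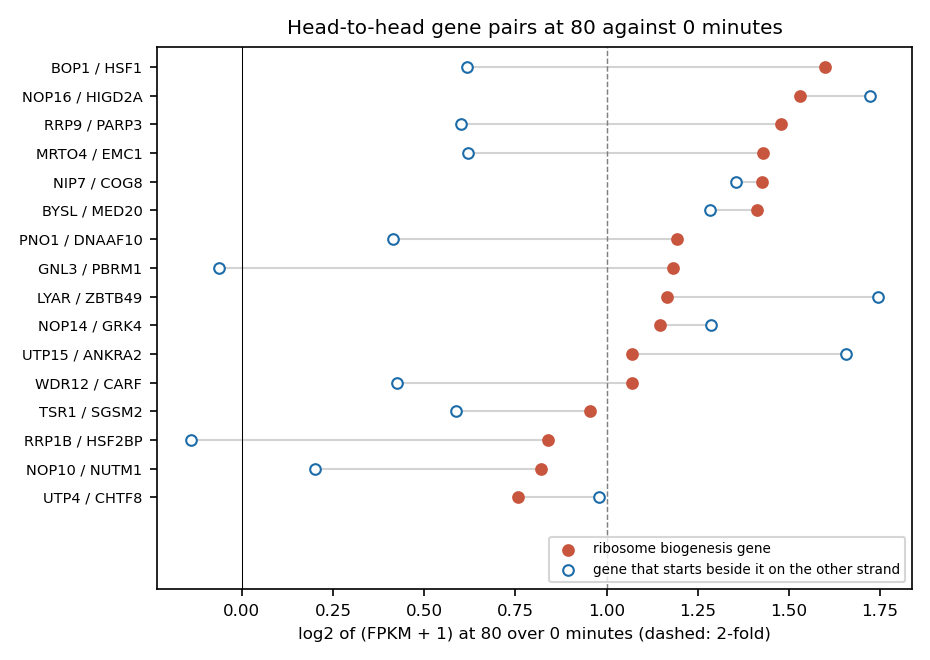
Log2 ratio of FPKM + 1 at 80 over 0 minutes (x axis) for the 16 genes that start beside a coding gene on the other strand (filled points, 1 row per pair) and for that neighbour (open points), with 2-fold as a dashed line. As deposited 6 of the neighbours lie past 2-fold, and those of GNL3 and RRP1B lie below 0.

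Libraries were made with a stranded kit, but no source used here says whether the counting kept the strand. In GENCODE 29, genes on the other strand cover over 10% of the whole annotated gene record of 11 of the 42. That record can be longer than the transcripts behind the values. For WDR12 the overlap with CARF is 74850 bases, against a length of 37.4 kb used here. Cover of the transcripts alone was not computed. Cover of the record was 100% for NIP7, NOP16, PNO1 and UTP14A, 93.5% for NOP14 and 53.6% for WDR12, and it was 0 for 23 genes. Reads of such partners cannot be told apart from the members' without strand.

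Introns of these genes carry guide RNAs of the same pathway. In GENCODE 29, 23 small nucleolar RNAs (snoRNAs) of the table lie on the strand of 9 of the 42 genes, 18 of the box C/D and 5 of the box H/ACA kind. At 80 minutes 22 of the 23 were above their 0 minute value and 7 were at least 2-fold higher (30.4%), against 89.3% and 42.4% of the 224 kept genes named as snoRNAs and 20.1% of all genes at 2-fold. Counts behind them are low, with a median of 14.4 table steps at 0 minutes and between 0.909 and 69.0. A read inside a snoRNA can come from the mature snoRNA or from the intron of its host. NOP56 holds the most, and 4 of its box C/D snoRNAs are printed here because 1 of them parted from the rest. Capitals mark the box C core TGATG and the box D CTGA (GENCODE 29, GRCh38, all on the plus strand), and the letters between the boxes hold the guides.
SNORD86 (chr20:2656097-2656182): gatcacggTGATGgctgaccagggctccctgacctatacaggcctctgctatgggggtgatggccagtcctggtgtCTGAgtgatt
SNORD110 (chr20:2654212-2654286): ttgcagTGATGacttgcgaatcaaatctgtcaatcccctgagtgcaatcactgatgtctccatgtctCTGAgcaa
SNORD56 (chr20:2656624-2656694): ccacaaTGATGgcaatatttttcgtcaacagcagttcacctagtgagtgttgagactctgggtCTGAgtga
SNORD57 (chr20:2656939-2657010): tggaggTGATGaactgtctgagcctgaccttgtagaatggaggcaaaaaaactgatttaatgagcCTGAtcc
SNORD86 stood at 42.9, 336, 959, 597, 869 and 1979 FPKM and 1976 in the asynchronous culture. At 0 minutes this is less than 1 step of the table, so no fold is given. The value was 0.0358 of that of NOP56 at 0 minutes, 0.772 at 300 and 0.823 in the asynchronous culture. SNORD57 stood at 2774, 3363, 4155, 5018, 4407 and 5296 FPKM and 5532 in the asynchronous culture, 2.32 times its host at 0 minutes and 2.07 times at 300. SNORD56 and SNORD110 were at 1772, 1994, 2569, 2918, 2876 and 3892 FPKM and 4440.1 in the asynchronous culture (SNORD56) and at 1786, 1684, 2522, 2350.3, 3128 and 3244 FPKM and 2492 in the asynchronous culture (SNORD110). The H/ACA snoRNA of the same gene, SNORA51, was at 578, 855, 1156, 1042, 1216 and 1322 FPKM and 1072 in the asynchronous culture. Of the 5 snoRNAs in NOP56, SNORD86 alone was under 1 step at 0 minutes, with the others between 18.8 and 49.2 steps.

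**Figure D5:**
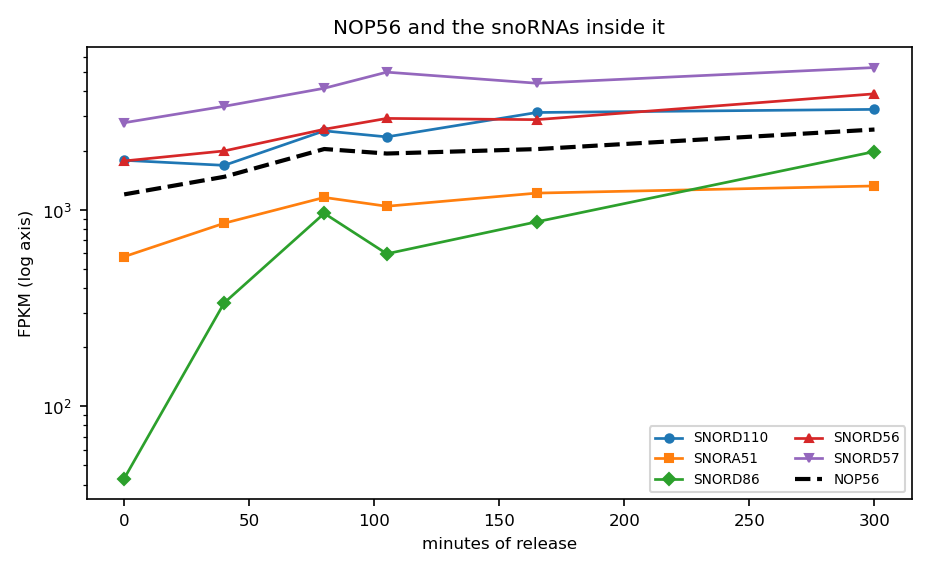
FPKM (y axis, log scale) of the 5 snoRNAs inside NOP56 (coloured lines) and of NOP56 itself (dashed black line) against minutes of release (x axis). SNORD86 goes from 42.9 FPKM at 0 minutes to 1979 at 300, and the other 4 reach at most 2.29 times their 0 minute value.

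Other genes of the pathway were taken from lists. Counts and medians in this paragraph are as deposited, and those of the other lists were not repeated with other scalings. Of 89 further ribosome biogenesis factors 38 were at least 2-fold higher at 80 than at 0 minutes and 0 lower (42.7%), against 20.1% of all genes and 34.7% of genes of 100 to 1000 FPKM. Highest at 80 minutes were 41 of the 89 (46.1%) and at 165 or 300 minutes 38 (42.7%). These shares were 23.1% and 34.2% of all genes and 31.4% and 46.4% of genes of 100 to 1000 FPKM. The processome genes WDR3 and IMP4 were at 288 and 416 FPKM at 80 minutes against 66.1 and 98.3 at 0 minutes, and ABT1 at 541 against 133. At 0 minutes 18 of the 89 (20.2%) were at least 2-fold below the asynchronous level and 0 above, near the 19% of all genes and under the 27.1% of genes of 100 to 1000 FPKM, led by IMP3 (231 against 899.6 FPKM), LAS1L (87.4 against 317) and NLE1 (77.1 against 249). Of 21 genes of the RNA polymerase I machinery 12 (57.1%) were at least 2-fold higher at 80 than at 0 minutes and 0 lower. Its subunit gene POLR1H was at 164 FPKM against 43.7. Among 79 genes for ribosomal proteins, the step to 80 minutes reached 2-fold in 48 (60.8%), and 54 (68.4%) were highest then and 16 (20.3%) at 165 or 300. From 80 to 300 minutes their median log2 fold was -0.58, against -0.10 for the 42 genes and -0.13 for the further factors. At 300 against 0 minutes the shares at least 2-fold higher were 13.9% for ribosomal protein genes, 42.9% for the polymerase I machinery, 40.4% for the further factors, 52.4% for the 42 genes, and 18.9% for all genes. At 300 minutes 45 of 79 ribosomal protein genes (57%) and 72 of 89 further factors (80.9%) were above the asynchronous culture. The shares were 59% of all genes and 58.8% of genes of 100 to 1000 FPKM, so the ribosomal protein genes were near the background.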

How the data were processed

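Labelled RNA of HUH7 cells was sequenced in 32 samples, and the authors deposited FPKM per RefSeq transcript as 1 value for each of 7 groups. Per the submitters' processing notes, reads were handled with Bowtie2 2.2.9, TopHat and bedtools on hg19; the steps from reads to FPKM, the pooling of replicates and the length used are not described there. Among transcript pairs of 1 gene with the same genomic span 87.8% had identical values, against 50.1% of pairs with different spans. Identical values were thus more frequent at the same span, but the second share is too high to settle which length was used. That FPKM follow the genomic span, introns included, is an assumption here. Samples with spike-in RNA and unlabelled samples are not used here.

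Of 48205 transcripts 97.8% were matched to a symbol through RefSeq GRCh38.p14. A gene's value is the mean over its distinct sets of values, which 38 of the 42 genes have 1 of and 4 have 2. A gene was kept when 3 or more groups held 1 FPKM or more. Folds are ratios of FPKM + 1, on the log2(FPKM + 1) scale where given as log2, and 2-fold is the call. No count model or test fits 1 value per group, so none of the comparisons has a p-value. Depth was estimated from the commonest value of FPKM times kb among small RNA genes. If that step is 1 read, depth relative to 0 minutes was 1.15 at 40 minutes and between 1.49 and 1.86 in the other groups. If the genomic span is also the length used, the fewest steps per group behind a member had a median of 972 (counting error 3.21%). Lengths, neighbours and snoRNA positions are from GENCODE 29 (GRCh38). Python 3.11.15, pandas 2.3.3 and numpy 2.4.6 were used, and the counting of folds was tested on simulated data.

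The 42 genes, their roles and the other gene lists were chosen with earlier results of these data known. All 42 may be named. Values are given for those of largest fold and for the highest and lowest of a role or those with another time than most of it, and then for the rest. From other pathway lists at most 3 genes per direction were named. The class of 100 to 1000 FPKM, the complexes set in a ratio and the printed sequences were picked after the values were seen. Alternatives were other pseudocounts, filters, scalings and transcript choices.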

Additional observations from a re-analysis of the deposited data

How the results depend on the processing

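Of 11 counts of 2-fold members, quantile normalization moved 5 by more than 1.5 times and equal medians 4. Quantile normalization moved the count from 7 to 2 at 0 minutes against the asynchronous culture, from 18 to 1 at 80 against 0 minutes, from 9 to 0 at 80 against 40, from 3 to 5 at 300 against 80 and from 22 to 3 at 300 against 0. It also moved the members highest at 80 minutes from 21 to 8. Equal medians moved the first 3 of these counts to 2, 8 and 2, and that of 300 against 0 minutes to 8. The cause was not tested. Both scalings left 2 calls at 300 minutes against the asynchronous culture. Pseudocounts of 0.1 and 5, no filter, a filter of 10 FPKM, the highest transcript and NM transcripts alone left every count within 1.5 times its value, and the pseudocount of 5 took 2 single calls under 2-fold. No median or fold at 2-fold or more changed sign in these alternatives; medians under 2-fold that did are given in the report or here. After quantile normalization the medians at 40 against 0 minutes were -0.05, -0.02 and -0.02 for the small subunit, snoRNP and shared genes, and that at 80 against 40 was -0.06 for the shared genes. At 165 against 105 minutes the medians of the 42 and of the large subunit turned from -0.01 (both) to 0.09 and 0.07 after quantile normalization and 0.09 and 0.08 with equal medians. At 300 against 165 the large subunit turned from -0.04 to 0.16 after quantile normalization, and the 42, the small subunit and the shared genes turned to -0.02, -0.02 and -0.01 with equal medians. At 300 against 80 the 42 turned from -0.10 to 0.15 after quantile normalization, and at 300 against 0 the shared genes from 0.42 to -0.02. No paired analysis was possible because the table has 1 value per group, and replicates could not be left out for the same reason. Depth limits the snoRNAs, with a median of 14.4 steps at 0 minutes, more than the genes.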

Other observations

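Hairpins of 3 microRNAs lie on the strand of members, and they were named after their values were seen. MIR6851 in NOL6 stood at 286, 331, 894, 935, 487 and 464 FPKM from 0 to 300 minutes and at 229.6 in the asynchronous culture, 3.11-fold higher at 80 than at 0 minutes where NOL6 was 3.36-fold higher. MIR664B and SNORA36A share a place in DKC1 and their values ran in parallel, at 206 and 96.7 FPKM at 0 minutes and 391 and 184 at 80. MIR7112 in BOP1 was at 67.6 FPKM at 0 minutes, about 1 step of the table, and at 386 at 300. As with the snoRNAs, reads of a hairpin and of the intron around it cannot be told apart.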
